A study of Mus musculus with 2 samples.

Results

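The genes described here are 10 genes commonly used to recognise Langerhans cells and macrophages in skin, namely Cd207, Epcam, Csf1r, Adgre1, Cd68, Mrc1, C1qa, C1qb, Lyz2 and Ctss. They were found by the gene symbol that the array's annotation gives to a probe set, and the rule used no measured value. All 10 genes were on the array, through 15 of its 45101 probe sets, against 18194 genes in all. The follicle structures compared were the bulge, which houses stem cells, and the hairshaft, both of mouse skin, with 1 array for each. Both samples were total RNA of C57Bl6 mice aged 21 days, cut by laser from frozen skin stained with eosin, and 30 ng of each was amplified before labelling with biotin. No genotype, treatment, sex or number of animals is given, and the sources used here do not say how the structures were recognised in the sections. With 1 array for each structure there was no replicate spread, so no difference was tested and no error is given. The number of arrays limits the precision, and every comparison below describes this single pair.

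Langerhans cells are the resident antigen-presenting cells of the epidermis, including the epithelium of the hair follicle. They carry langerin, the product of Cd207, a lectin that forms Birbeck granules, and in mice they also carry the adhesion molecule Epcam, which many epithelial cells make as well. Macrophages of the dermis share with them the receptor Csf1r, whose ligands Csf1 and Il34 keep both cell types alive; Il34 is the ligand made by keratinocytes on which Langerhans cells depend. The other genes serve uptake and breakdown of material (Mrc1, Cd68, Lyz2, Ctss) or start the classical complement pathway (C1qa, C1qb), and Adgre1 encodes the macrophage surface marker F4/80.

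The bases before the start of 4 of the genes are shown because Cd207 had a higher value in the hairshaft, Epcam, Lyz2 and Cd68 in the bulge, and Cd68 held 2 of the 3 AP-1 matches. The sequences are from RefSeq, build GRCm38.p6, and each is the 250 bases before the annotated start, read 5′ to 3′ on the gene's strand. Capitals mark matches to GAGGAA, a purine-rich box of the kind bound by the myeloid factor PU.1, and to TGAGTCA, a binding motif of AP-1, each searched on both strands. The core TATAAA was searched in the same way, and no matches overlapped.
Cd207 (chr6:83677858-83678107, minus strand): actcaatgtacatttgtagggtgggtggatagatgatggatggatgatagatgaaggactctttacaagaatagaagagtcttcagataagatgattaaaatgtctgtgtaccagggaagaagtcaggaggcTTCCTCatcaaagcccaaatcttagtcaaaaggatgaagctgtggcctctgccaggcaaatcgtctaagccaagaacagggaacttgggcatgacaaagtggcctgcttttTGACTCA
Epcam (chr17:87635729-87635978, plus strand): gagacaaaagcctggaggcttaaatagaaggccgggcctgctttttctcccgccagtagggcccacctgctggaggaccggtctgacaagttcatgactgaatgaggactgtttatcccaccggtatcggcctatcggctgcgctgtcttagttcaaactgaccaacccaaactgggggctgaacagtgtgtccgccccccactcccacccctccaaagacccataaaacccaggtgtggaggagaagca
Lyz2 (chr10:117282273-117282522, minus strand): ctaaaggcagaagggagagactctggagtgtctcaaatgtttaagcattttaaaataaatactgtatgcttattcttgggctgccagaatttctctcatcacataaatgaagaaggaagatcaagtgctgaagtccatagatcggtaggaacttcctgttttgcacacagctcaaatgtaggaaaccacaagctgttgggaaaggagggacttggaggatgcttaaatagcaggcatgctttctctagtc
Cd68 (chr11:69666171-69666420, minus strand): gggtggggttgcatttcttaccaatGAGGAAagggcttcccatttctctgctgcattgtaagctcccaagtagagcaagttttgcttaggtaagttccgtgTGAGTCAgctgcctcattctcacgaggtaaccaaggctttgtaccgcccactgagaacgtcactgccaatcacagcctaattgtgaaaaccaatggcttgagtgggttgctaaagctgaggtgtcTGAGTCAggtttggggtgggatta
The table held such windows for 7 of the 10 genes, and none for Csf1r, Adgre1 and C1qa. GAGGAA was present in 5 of these 7 (Cd207, Cd68, Mrc1, C1qb and Ctss), and in 23.3% of all 32851 windows of the same length. TGAGTCA was present in 2 (Cd207 and Cd68), against 4.46% of all windows, and TATAAA in 1 (Ctss), against 12.4%. In Cd207 the AP-1 motif lay on the other strand at bases 7 to 1 before the start, and the GAGGAA match, also on the other strand, at bases 118 to 113. Cd68 held TGAGTCA at bases 149 to 143 and at bases 24 to 18, and GAGGAA at bases 225 to 220. The Epcam and Lyz2 windows held none of the 3 motifs. A match shows only that these letters are present.

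All 15 probe sets lay above the background floor of 2.68 on both arrays, the lowest value being the 6.57 of Cd68 in the hairshaft. Values are log2 GCRMA values, which are probe-set brightness corrected for background and normalized between arrays, and the floor is the level that receptor genes of the nose, not known to be active in skin, rarely passed. A gene was counted for a structure when its level there was 2-fold or more above that in the other. None of the 10 genes was 2-fold apart. Over all 13329 genes above the floor, 11.4% were counted for the bulge and 4.91% for the hairshaft. None of the 15 probe sets passed 2-fold either, against 9.87% and 6.75% of all 24173 named probe sets above the floor. By sign alone, 44.9% of all genes above the floor were higher in the bulge and 46.6% in the hairshaft, and 6 of the 10 genes were higher in the bulge. With a limit of 1.5-fold, chosen after the values were seen, Epcam and Lyz2 were higher in the bulge, against 18.5% of all genes. At the same limit Csf1r and Cd207 were higher in the hairshaft, against 13.8% of all genes. Among probe sets this limit was passed by 4 of 15 in the bulge (16.7% of all probe sets) and 4 in the hairshaft (16%). The hairshaft count holds all 3 probe sets of Csf1r, and the bulge count holds 1417063_at and 1434366_x_at of C1qb. Single genes are therefore counted more than once. Each difference is given as bulge minus hairshaft, in log2 units. The median over the 10 genes was 0.05, that over all genes above the floor 0.00, and the 10 genes ran from -0.98 to 0.80. Their median size without regard to sign was 0.45, against 0.34 for all genes above the floor.

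**Figure D1:**
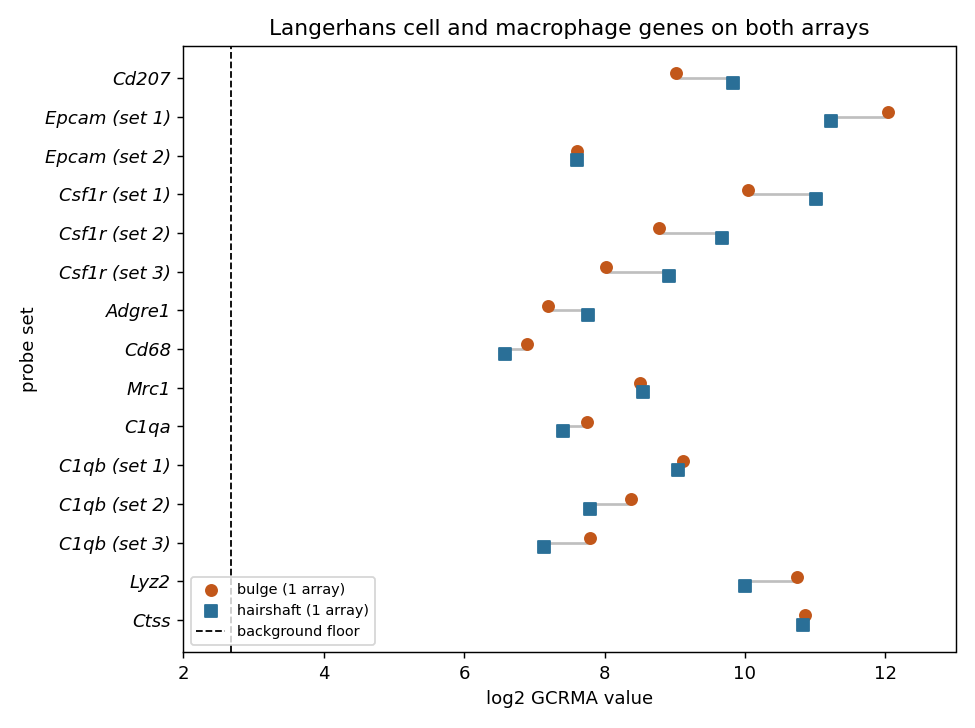
Log2 GCRMA value (horizontal axis) of each of the 15 probe sets of the 10 genes on the bulge array (circles) and the hairshaft array (squares), 1 array each, with the background floor of 2.68 as a dashed line. Probe sets of 1 gene are numbered from the brightest; all 3 probe sets of Csf1r were higher on the hairshaft array, and the second Epcam probe set had the same value on both.

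Both Langerhans cell markers were clearly detected, and they differed in opposite directions. Cd207 (probe set 1425243_at) had 9.01 in the bulge, against 9.84 in the hairshaft, a difference of -0.82, or 1.77-fold higher in the hairshaft. Epcam (1416579_a_at) had 12.03 in the bulge, against 11.23 in the hairshaft, 1.74-fold higher in the bulge. The ratio of Cd207 to Epcam therefore differed by 3.08-fold between the arrays, and was lower in the bulge; such a ratio does not depend on a common scaling of an array. In dissected tissue, fewer cells of a type and less RNA in each cell cannot be told apart, here and for every gene below. A second Epcam probe set, 1447899_x_at, had 7.61 on both arrays, equal to the last deposited digit. Equal values were common in this table, at 3267 of the 28721 probe sets above the floor (11.4%), so this equality does not show equal expression. With the mean of both probe sets the Epcam difference was 0.40.

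Epcam is also a gene of epithelial cells, and the epithelial genes related to it were divided in direction. Of 13 other genes of the epithelial adhesion list above the floor, 5 were higher in the bulge and 8 in the hairshaft. By sign alone the shares of all genes were 44.9% and 46.6%. None of the 13 was 2-fold apart, against 11.4% and 4.91% of all genes, and the median was -0.05. Cldn4, a tight junction claudin, was the nearest in size at 9.40 in the bulge, against 8.54 in the hairshaft. The junction genes F11r and Cldn3 ran the other way, by -0.73 and -0.68, and E-cadherin (Cdh1), which holds Langerhans cells to keratinocytes, had 12.34 in the bulge, against 12.39 in the hairshaft. Krt18 differed by 0.66, with 3.38 in the bulge, against 2.72 in the hairshaft, close to the floor. The adhesion partner Cldn7 was at 2.32 on both arrays, below the floor. Basal keratinocyte genes were lower in the bulge in 7 of 9 cases, against 46.6% of all genes above the floor. Of the 7, Krt5 and Krt14 were nearly equal on both arrays, at -0.0029 and -0.017, and 1 gene was past 2-fold (0 when probe sets were averaged). The summed level of the 9, on the log2 scale, was 15.88 in the bulge, against 16.03 in the hairshaft. The part of keratinocyte RNA in the Epcam difference was not tested.

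Other genes of Langerhans and dendritic cells were mixed. Among 25 such genes above the floor, without Cd207 and Epcam, 1 was counted for the bulge, 2 for the hairshaft and 22 for neither. The shares of all genes above the floor were 11.4% for the bulge and 4.91% for the hairshaft. The median of the list was 0.00. The hairshaft count was 1 with the floor at the receptors' 99th percentile, with an offset of 16 before the log, with averaged probe sets, or with plain probe sets, those whose names end in _at alone. Cd1d1, which presents lipids and is found on many cell types, had 8.04 in the bulge, against 3.32 in the hairshaft, the widest difference of the list at 4.72 (3.27 with plain probe sets). Runx3, a transcription factor needed for Langerhans cells and also active in T cells, had 4.45 in the bulge, against 6.20 in the hairshaft (-1.74, which was -0.87 when its probe sets were averaged). The lectin gene Cd209a had 4.12 in the bulge, against 5.13 in the hairshaft, a difference of -1.01 that was -0.92 with the 99th percentile floor and -0.61 with the offset. The lectin gene Mgl2, a marker of dermal dendritic cells, ran the other way at 7.01 in the bulge, against 6.13 in the hairshaft. The integrin Itgax (CD11c) had 5.78 in the bulge, against 6.36 in the hairshaft, in the direction of Cd207. Ly75, a receptor of Langerhans and dendritic cells, had 3.82 on both arrays, again equal to the last digit.

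MHC class II genes, which these cells use to present antigen, were lower in the bulge in 6 of 8 cases above the floor, 1 of them past 2-fold (3 when probe sets were averaged). The shares of all genes above the floor were 46.6% by sign alone and 4.91% past 2-fold in that direction. H2-Eb1 had 6.09 in the bulge, against 11.47 in the hairshaft, while H2-Ab1 had 11.77 in the bulge, against 12.20 in the hairshaft and H2-Aa 12.56 in the bulge, against 12.28 in the hairshaft. The wide H2-Eb1 difference rests on 1 probe set and was not shared by H2-Ab1 or H2-Aa. H2-Oa and the class II activator Ciita differed by -0.94 and -0.79, and H2-Ob by 0.72.

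Csf1r, the receptor shared by Langerhans cells and macrophages, had the largest difference of the 10 genes and, of the 3 genes with several probe sets, the smallest spread among them. Probe set 1419872_at had 10.04 in the bulge, against 11.01 in the hairshaft, 1419873_s_at had 8.78 in the bulge, against 9.67 in the hairshaft, and 1423593_a_at had 8.02 in the bulge, against 8.92 in the hairshaft. The differences of -0.98, -0.90 and -0.90 lay within 0.1 of each other. Among all 6256 genes that had several probe sets above the floor, the median gap between a gene's highest and lowest difference was 0.53, and 3131 had all probe sets in 1 direction. Probe sets of a gene were read on the same RNA and are no replicates of a structure.

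The ligands of Csf1r differed less than the receptor. Csf1 had 7.11 in the bulge, against 7.64 in the hairshaft, a difference of -0.53, and its 4 probe sets ran from -0.75 to 0.00. Il34 had 8.64 in the bulge, against 8.48 in the hairshaft, a difference of 0.16. The list of Csf1r ligands, effectors and Langerhans cell niche had 20 genes above the floor, with a median of -0.08. Of these, 2 were counted for the bulge and none for the hairshaft, against 11.4% and 4.91% of all genes above the floor. The hairshaft count was 2 after quantile normalization and 1 with a loess trend removed, and the bulge count was 1 with the 99th percentile floor or the offset of 16. Spi1, which encodes the myeloid factor PU.1, had 5.82 in the bulge, against 6.81 in the hairshaft, a difference of -0.99. A link between the Spi1 and Csf1r values was not tested. Inpp5d, a phosphatase of blood cells, differed by -0.88 and the adaptor Tyrobp by -0.74, with 8.65 in the bulge, against 9.39 in the hairshaft. The genes past 2-fold were Itgb8, an integrin chain that activates TGF-beta, with 8.15 in the bulge, against 4.95 in the hairshaft, and Ccl20, a chemokine that attracts Langerhans cell precursors, with 5.04 in the bulge, against 3.29 in the hairshaft. The Ccl20 difference of 1.75 was 0.83 with that floor.

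**Figure D2:**
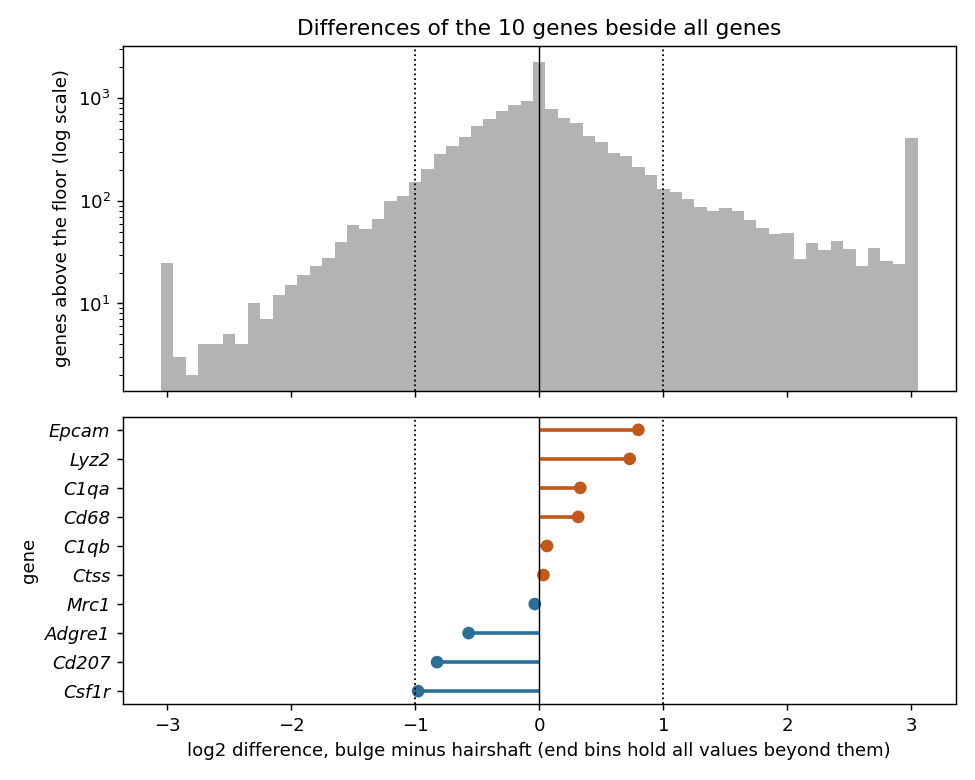
The upper panel counts all 13329 genes above the floor by their log2 difference, bulge minus hairshaft, on a log scale of counts, with values beyond the axis in the end bins. The lower panel gives the 10 genes on the same horizontal axis; all lie between the dotted lines at 2-fold, from Csf1r at -0.98 to Epcam at 0.80.

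Of the macrophage surface genes, Adgre1 was higher in the hairshaft and Mrc1 was nearly equal on both arrays. Adgre1 (1451161_a_at) had 7.20 in the bulge, against 7.77 in the hairshaft, 1.48-fold higher in the hairshaft. Mrc1 (1450430_at), the mannose receptor of dermal macrophages, had 8.51 in the bulge, against 8.55 in the hairshaft, a difference of -0.04. Its relative Mrc2, a collagen receptor of fibroblasts, had 6.62 in the bulge, against 6.75 in the hairshaft. The median of the 17 other C-type lectins and mannose receptors above the floor was 0.00. None was counted for the bulge, against 11.4% of all genes, and 2 for the hairshaft (Clec4n and Cd209a), against 4.91%. Both are counted in another list as well, Cd209a in that of Langerhans and dendritic cells and Clec4n in that of macrophages. The hairshaft count was 1 with the 99th percentile floor and 0 with plain probe sets or the offset of 16, and the bulge count was 1 with averaged probe sets, plain probe sets or the loess trend removed. Clec4n, the receptor dectin-2, had 3.99 in the bulge, against 5.38 in the hairshaft, and both its probe sets had the same direction (-1.39 and -1.21); with the offset the first was -0.85. Pla2r1 differed by 0.91, with 5.58 in the bulge, against 4.67 in the hairshaft. Cd209b had 4.24 in the bulge, against 3.25 in the hairshaft, and its difference was 0.03 with the 99th percentile floor.

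Over the wider macrophage list the genes divided. Of 39 genes above the floor other than the 10, 4 were counted for the bulge, 2 for the hairshaft and 33 for neither. Over all genes above the floor the shares were 11.4% and 4.91%, so the list was close to all genes in both directions. By sign alone 18 were higher in the bulge and 16 in the hairshaft, against 44.9% and 46.6% of all genes. The median was 0.00. The count in the bulge was 2 when probe sets were averaged and 2 with an offset of 16 before the log, and that in the hairshaft was 0 with the offset and 4 after quantile normalization. Retnla, a secreted product of alternatively activated macrophages that fat tissue also makes, had 10.04 in the bulge, against 7.02 in the hairshaft, an 8.12-fold difference. Lyve1, a hyaluronan receptor of some macrophages and of lymph vessels, had 4.80 in the bulge, against 2.94 in the hairshaft (1.86, which was 0.59 with the 99th percentile floor). The chemokine receptor Ccr2 had 6.15 in the bulge, against 4.98 in the hairshaft (1.18, which was 0.28 when its 4 probe sets were averaged). Mertk, a receptor for dying cells, had 7.62 in the bulge, against 6.47 in the hairshaft, and the scavenger receptor Cd163 8.64 in the bulge, against 7.65 in the hairshaft. In the other direction lay Ncf4, a subunit of the phagocyte oxidase, at 5.47 in the bulge, against 6.50 in the hairshaft (-1.03, which was -0.82 with the offset), and Mpeg1, a pore-forming protein of macrophages, at 7.65 in the bulge, against 8.43 in the hairshaft. Fcgr1, Itgam, Msr1, Marco and Ms4a7 had equal values on both arrays, of 3.15 for Fcgr1 and 2.84 for Itgam. Chil3, Timd4 and Fcgr4 were below the floor on both.

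Cd68 was slightly higher in the bulge and Ctss was nearly equal on both arrays. Cd68 (1449164_at), a membrane protein of macrophage lysosomes, had 6.89 in the bulge, against 6.57 in the hairshaft, 1.24-fold higher in the bulge. Ctss (1448591_at), the protease that trims the invariant chain of MHC class II, had 10.86 in the bulge, against 10.82 in the hairshaft. Set against Cd68, Csf1r differed by 2.45-fold and Adgre1 by 1.85-fold, both lower in the bulge. Of 26 other cathepsins and lysosomal genes, all above the floor, 3 were counted for the bulge and 2 for the hairshaft. The shares of all genes above the floor were 11.4% and 4.91%, and the median of the list was 0.06. Ctsk, the collagen-cleaving cathepsin, had 8.98 in the bulge, against 10.87 in the hairshaft, and Ctsw, a cathepsin of killer lymphocytes, 5.96 in the bulge, against 7.40 in the hairshaft. Ctsz had 10.52 in the bulge, against 9.28 in the hairshaft (1.24, which was 0.96 when its probe sets were averaged), the cystatin Cst6 14.31 in the bulge, against 13.16 in the hairshaft, and prosaposin (Psap) 12.22 in the bulge, against 11.08 in the hairshaft. The other cathepsins of antigen processing were nearer each other, with Ctsl at 12.63 in the bulge, against 12.88 in the hairshaft and Ctsb at 12.02 in the bulge, against 11.94 in the hairshaft.

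Lyz2 (1423547_at) encodes the lysozyme of macrophages and neutrophils. It had 10.74 in the bulge, against 10.01 in the hairshaft, 1.66-fold higher in the bulge. Its neighbour and near-copy Lyz1 had 12.58 in the bulge, against 11.86 in the hairshaft, a difference of 0.72 beside the 0.73 of Lyz2. Probe sets of these similar genes can share signal, so the values of Lyz1 and Lyz2 may not be independent. The ratio of Csf1r to Lyz2 differed by 3.26-fold between the arrays and was lower in the bulge. Neutrophils also make Lyz2; of 6 neutrophil genes above the floor S100a8 had 9.40 in the bulge, against 6.59 in the hairshaft and S100a9 9.46 in the bulge, against 7.10 in the hairshaft, although stressed keratinocytes make both. The neutrophil granule genes Mpo, Elane, Ltf and Ngp were below the floor on both arrays, the cytokine Il1b had 4.36 in the bulge, against 4.62 in the hairshaft, and Mmp9 had 5.53 in the bulge, against 7.20 in the hairshaft.

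The C1q genes were somewhat higher in the bulge. C1qa (1417381_at) had 7.74 in the bulge, against 7.41 in the hairshaft, a difference of 0.33. For C1qb, probe set 1417063_at had 7.80 in the bulge, against 7.13 in the hairshaft, 1434366_x_at had 8.38 in the bulge, against 7.79 in the hairshaft, and the brightest, 1437726_x_at, had 9.11 in the bulge, against 9.05 in the hairshaft. The differences were 0.66, 0.60 and 0.06, so the gene's difference was 0.06 with the brightest set and 0.66 with the plain set alone. C1qc, which lies between both genes in the genome and encodes the last chain of the C1q molecule, had 6.51 in the bulge, against 5.91 in the hairshaft. All 5 probe sets of the C1q chains therefore had the same direction.

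The rest of the complement list held larger differences, and those past 2-fold all had that direction. Of 18 other complement genes above the floor, 4 were counted for the bulge and none for the hairshaft. The shares of all genes above the floor were 11.4% and 4.91%. By sign alone 12 of the 18 were higher in the bulge and 4 in the hairshaft, and the median was 0.26. With plain probe sets 1 was counted for the hairshaft. C1s1 and C1ra, the proteases that bind to C1q, had 7.83 and 7.08 in the bulge, against 5.09 and 4.92 in the hairshaft. Cfb, a factor of the alternative pathway, had 6.28 in the bulge, 4.86-fold above the hairshaft (2.28, which was 1.55 with the offset of 16), and Serping1, the inhibitor of the C1 proteases, had 10.90 in the bulge, against 9.36 in the hairshaft. Fibroblasts and other cells of connective tissue are among the cells that make these 4, while C1q comes mainly from macrophages and dendritic cells. Fibroblast genes had a median of -0.52, with 3 of 15 counted for the bulge and 5 for the hairshaft. The cell source of these complement differences was not tested. The receptor C3ar1 of myeloid cells had 4.28 in the bulge, against 3.98 in the hairshaft, and C5ar1 was below the floor on both arrays.

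**Figure D3:**
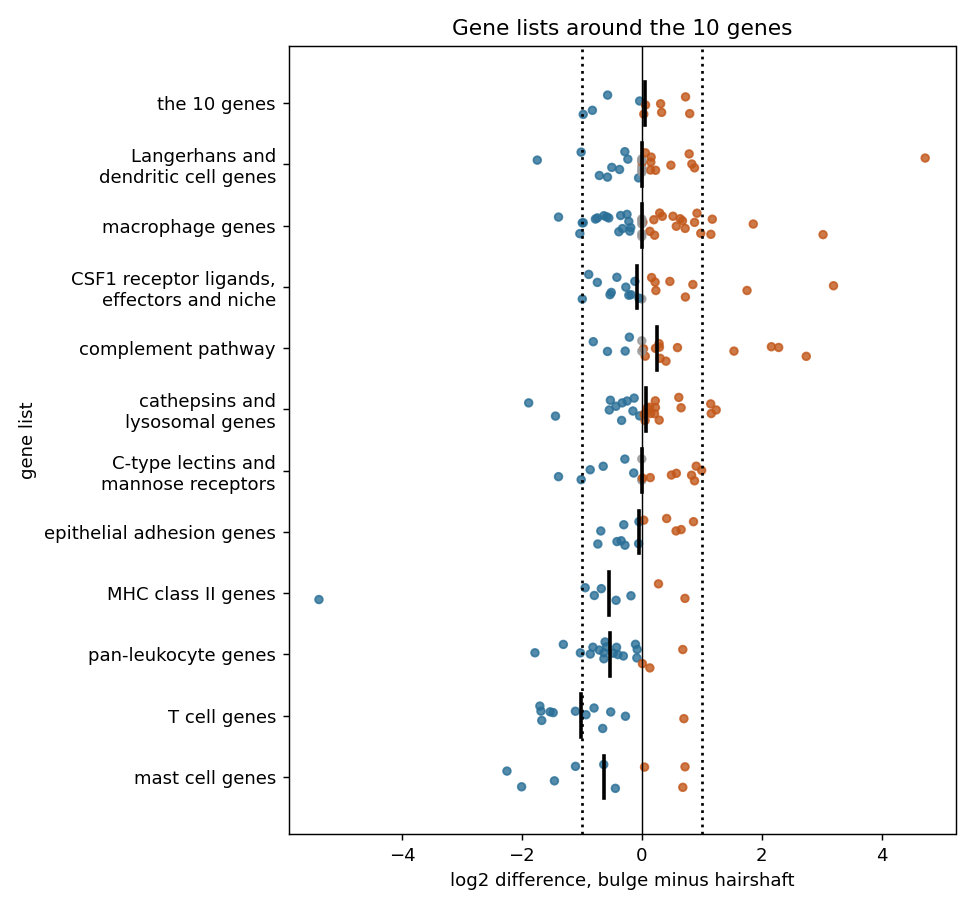
Log2 difference, bulge minus hairshaft, of each gene above the floor in the 10 genes and in 11 gene lists from which these 10 were left out. Each point is 1 gene, grey points are equal on both arrays, black bars are medians and dotted lines mark 2-fold; the pan-leukocyte median was -0.53 and the complement median 0.26.

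Markers of all leukocytes lay in the direction of Csf1r, Cd207 and Adgre1. Of 20 pan-leukocyte genes, 3 were higher in the bulge and 17 were higher in the hairshaft. Of the 17, 3 were past 2-fold (1 when probe sets were averaged), and the median was -0.53. Over all genes above the floor, 46.6% were higher in the hairshaft by sign alone and 4.91% by 2-fold or more. Their summed level, on the log2 scale, was 12.52 in the bulge, against 12.98 in the hairshaft, and all 20 were above the floor. Ptprc (CD45), the defining leukocyte gene, had 9.22 in the bulge, against 9.93 in the hairshaft. Was, an actin regulator of blood cells, had 3.89 in the bulge, against 5.68 in the hairshaft (-1.78, which was -1.12 with the offset of 16), and Plek 4.93 in the bulge, against 5.95 in the hairshaft (-1.02, which was -0.58 when its probe sets were averaged). Fermt3 had 7.72 in the bulge, against 9.03 in the hairshaft, but no difference (0.00) with its plain probe set. Coro1a had 8.60 in the bulge, against 9.46 in the hairshaft. T cell genes were lower in the bulge in 11 of 12 cases above the floor, with a median of -1.02, and mast cell genes in 6 of 9, with a median of -0.63. MHC class II genes had a median of -0.55. Of B cell genes only Ighm (7.16-fold, a log2 difference that was 0.80 when probe sets were averaged) and Jchain (1.83-fold) were above the floor, both higher in the bulge. Lyz2, Epcam, C1qa, Cd68, C1qb and Ctss, the last pair by under 0.1, had the opposite direction to 17 of 20 pan-leukocyte genes. The part of the amount of leukocyte RNA in the values of the 10 genes was not tested.

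Skeletal muscle, fat cell and endothelial genes had far larger median differences than these 10. Over all genes above the floor, 11.4% were counted for the bulge and 4.91% for the hairshaft. Skeletal muscle genes were counted for the bulge in 22 of 22 cases above the floor (median 10.06), fat cell genes in 11 of 11 (median 6.78) and endothelial genes in 16 of 20 (median 2.82). With the offset of 16 these medians were 8.33, 5.28 and 1.65, the lowest under any alternative. Bulge markers were counted for the bulge in 9 of 13 cases and for the hairshaft in 1 (0 when probe sets were averaged). Hair shaft keratins were counted for the bulge in 6 of 10 cases with none counted for the hairshaft, so hair keratins went against the label of the hairshaft sample. Fibroblast genes had a median of -0.52, with 3 of 15 counted for the bulge and 5 for the hairshaft. The part of muscle, fat and vessel tissue, each of which holds macrophages, in the values of the 10 genes was not tested.

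The directions of the 10 genes held under the other processing choices that were run. The choices of floor and the subtraction of the median difference could not have changed them, since all their values lay above each floor and that median was 0. Csf1r stayed between -0.99 and -0.89, Cd207 between -0.83 and -0.77 and Adgre1 between -0.63 and -0.52. Lyz2 stayed between 0.72 and 0.81, C1qa between 0.27 and 0.34 and Cd68 between 0.22 and 0.31. Epcam ran from 0.40 to 0.92 and C1qb from 0.06 to 0.66, the widest ranges of the 10. Mrc1 (-0.05 to -0.0039) and Ctss (0.03 to 0.13) were near 0 throughout.

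**Figure D4:**
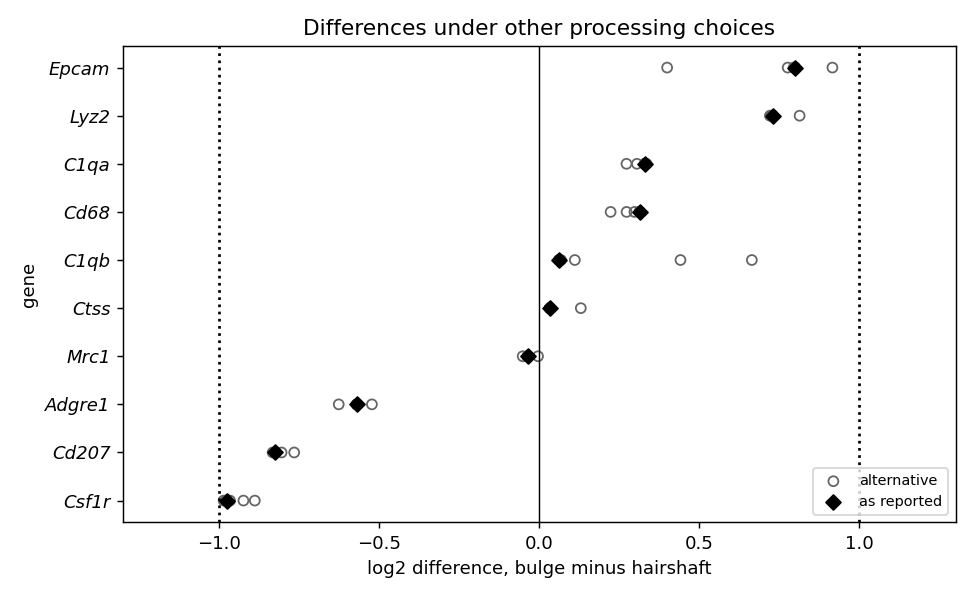
Log2 difference, bulge minus hairshaft, of each of the 10 genes as reported (filled diamonds) and under each alternative that could be run (open circles), with dotted lines at 2-fold. No gene crossed 0 or reached 2-fold, and Epcam (0.40 to 0.92) and C1qb (0.06 to 0.66) moved the most. Alternatives that changed only the floor or subtracted the median difference could not move these genes.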

How the data were processed

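The authors summarised the probe sets with GCRMA, per the submitters' processing notes, and deposited log2 values; no version or setting of GCRMA is stated in the sources used here. That the scale is log2 follows from the range, 2.23 to 15.36. Sorted by size, the values of both arrays were at most 0.19 apart, so no scaling was added. There were 0 unmatched columns.

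The platform annotation gave 34958 probe sets 1 symbol, 932 several and 9211 none. For 34754 of the probe sets with 1 symbol, the symbol was taken from RefSeq (GRCm38.p6) by Entrez identifier, whether or not it differed. Each gene was represented by its brightest probe set, averaged over both arrays. The floor on each array was the 95th percentile of 80 olfactory and vomeronasal receptor probe sets, and replaced lower values in differences. No test was run, since 1 array for each structure leaves 0 residual degrees of freedom.

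The members, the 20 gene lists and the rules were chosen with earlier results of these data known. The genes named were all members, up to 4 others with the largest difference from each list, and Csf1, Il34, C1qc, Lyz1, Mrc2, Ptprc and Itgam. Lists of other tissues, T cells and mast cells have only counts, medians and summed levels, apart from Krt5 and Krt14. Others (such as Mertk, Cd163, Tyrobp, Cdh1, Psap, Krt5 and Krt14) were picked once the values were known. The counting code was run on simulated data with planted differences above 2-fold and an assumed noise. That run checked the code and says nothing on the noise of these arrays. The software was matplotlib 3.10.9, statsmodels 0.14.6, numpy 2.4.6, pandas 2.3.3 and Python 3.11.15.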

Additional observations from a re-analysis of the deposited data

How the results depend on the processing

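The 9 alternatives were quantile normalization, subtraction of the median difference, subtraction of a loess trend with a span of 0.3, an offset of 16 before the log, plain probe sets only (without _a_at, _s_at and _x_at), averaging a gene's probe sets, and, in place of the floor, none, the median over all probe sets, or the 99th percentile of the receptors. Under these, none of the 10 genes passed 2-fold, and all 10 kept their direction. Several could not have changed them. The 10 genes lay above every floor, and the median difference subtracted was 0. Averaging could not change a gene with 1 probe set, nor could plain probe sets where that set was plain. Adgre1 and Epcam have no plain probe set. With the limit of 1.5-fold, added after the data were seen, 2 of the 10 genes were higher in the bulge and 2 in the hairshaft, against 2463 and 1843 of all genes. Over the single genes, probe sets and lists, 1341 values moved by less than 1.5-fold (or stayed within 1.5 times as counts), 122 moved by more, and 0 changes of direction were found among values past 2-fold. The cause was not tested. No paired analysis was possible because each structure has 1 array, and for the same reason no replicate could be left out. Arrays have no sequencing depth; signal near the floor of 2.68 limits what can be said of Itgam, Fcgr1 and Ly75.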

Other observations

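Values equal to the last deposited digit on both arrays were found for 1150 of the 13329 genes above the floor (8.63%) and for 3267 of 28721 probe sets. They include Itgam, Fcgr1, Msr1, Marco, Ms4a7 and Ly75 and the second probe set of Epcam. The equal values place the medians of the Langerhans, macrophage and lectin lists, and that over all genes above the floor, at 0.00. The reason for the equal values was not tested.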
